A study of Capra hircus with 2 samples.

Results

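The miR-99/100 and miR-125 families were followed in small RNA from the goat mammary gland through their 5 mature members miR-99a, miR-99b, miR-100, miR-125a and miR-125b, out of 161 miRNAs searched with let-7 set aside. Sequenced tags of 18 nt or more were counted for a member if they began at base 1 of the mature miRNA or lacked 1 or 2 bases there, matched it without mismatch and ran at most 3 bases past its end. The early lactation library was a pool of mammary RNA from 5 dairy goats on day 10 after parturition. The early involution library was a pool from 5 dairy goats on day 5 after forced weaning at late lactation, which was day 218 after parturition. No treatment other than weaning is named, and weaning and time since parturition cannot be told apart. With 1 library per stage the spread between goats was not measured, so no test between stages was possible and every interval covers counting error only.

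The miR-99/100 family shares one seed, the bases that pair with target mRNAs, and belongs to the wider miR-10 family. Its members are known as repressors of mTOR, the kinase that couples nutrient and growth factor signals to protein synthesis. The miR-125 family is the mammalian counterpart of lin-4 of Caenorhabditis elegans, is known for repressing LIN28, a blocker of let-7 processing, and in mammary cells for repressing the growth factor receptors ERBB2 and ERBB3. Mammalian genomes hold one miR-99/100 gene, a let-7 gene and one miR-125 gene together in each of several clusters. In these, miR-99a lies with a copy of miR-125b (miR-125b-2), miR-100 with the other copy (miR-125b-1), and miR-99b with miR-125a.

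The 5 mature sequences are shown because the identity of each member rests on few bases. Letters are those of the deposited tags, with T for U, and the capitals mark the seed, bases 2 to 8.
miR-99a: aACCCGTAgatccgatcttgtg
miR-99b: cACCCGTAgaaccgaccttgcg
miR-100: aACCCGTAgatccgaacttgtg
miR-125a: tCCCTGAGaccctttaacctgtga
miR-125b: tCCCTGAGaccctaacttgtga
Counted from 1 at the 5′ end, miR-99a and miR-100 differed by T16A alone. From miR-99a to miR-99b the substitutions were A1C, T11A, T16C and T21C. The miR-125 pair shared their first 13 bases. No tag matched more than 1 member. In the goat RefSeq gene table, assembly ARS1.2, 4 of the 5 members had an entry, MIR99A, MIR99B, MIR100 and MIR125B. MIR125A was not matched. MIR99A neighboured MIRLET7C and lay on the same chromosome as MIR125B, whereas MIR99B neighboured MIRLET7E and MIR100 lay on a chromosome other than that of MIR125B.

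The libraries held 18031615 clean tags in lactation and 7385833 in involution, so the lactation library was 2.44 times deeper. The members took 38780 and 16500 of these tags, or 0.215% and 0.223%. The whole mix of tags also differed: tags of 20 nt made up 18.2% in lactation and 25.2% in involution, tags of 22 nt 44.4% and 35.7%, and the median of all 141 miRNAs that reached 10 TPM (tags per 1000000 clean tags) was a ratio of 1.996, involution over lactation. Markers of cell types differed as well. The 8 epithelial miRNAs summed to 76731 and 50637 TPM, with 3 higher and 1 lower, and the 5 stromal and smooth muscle miRNAs to 310622 and 320911, with 2 higher. The 6 leukocyte miRNAs summed to 1383 and 1673 with 5 higher, the 2 endothelial to 7584 and 7085 with 1 higher, the 3 erythroid to 910 and 3051 with 2 higher, and the 3 skeletal muscle to 1446 and 1134 with 2 higher. In lactation a single miRNA made up most of each sum. It was miR-148a for the epithelial list (56042 TPM, then 24683), miR-143 for the stromal (310018, then 318833) and miR-155 for the leukocyte (1152, then 648). For the skeletal muscle list it was miR-1 (1443, then 1072). Median log2 ratios were 0.45 epithelial, 0.62 stromal, 2.14 leukocyte, 0.85 endothelial, 2.19 erythroid and 2.49 skeletal muscle, beside 0.997 for all tested. Of all 141, 49.6% were called higher and 5.67% lower by the rule given below. None of these markers was at 0, but miR-206, 1 of the 2 skeletal muscle miRNAs called higher, had 1 tag in lactation and 333 in involution. The part of the markers in the members' results was not tested.

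In lactation miR-100 was the most abundant member and in involution it was the least abundant. It stood at 657 TPM in lactation (95% Poisson interval 645 to 669, 11841 tags) and 207 in involution (197 to 217, 1527 tags), or 3.18-fold lower (95% interval 3.01 to 3.35). In bulk tissue, fewer cells of a type and less of the RNA per cell cannot be told apart.

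The near-identical miR-99a moved the other way, from 263 TPM in lactation (256 to 271, 4746 tags) to 558 in involution (541 to 575, 4120 tags). It was 2.12-fold higher (2.03 to 2.21). The third miRNA of this seed, miR-99b, had 567 TPM in lactation (556 to 578, 10226 tags) and 286 in involution (274 to 299, 2114 tags). That was a 1.98-fold lower level (1.89 to 2.08), and a call needed 2-fold.

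Both miR-125 members were higher in involution per clean tag, but miR-125a was lower under the median-of-ratios and TMM scalings given further on. miR-125b had 476 TPM in lactation (466 to 486, 8586 tags) and 951 in involution (928 to 973, 7021 tags), a ratio of 1.996 (1.93 to 2.06). miR-125a had 188 in lactation (181 to 194, 3381 tags) and 233 in involution (222 to 244, 1718 tags), a ratio of 1.24 (1.17 to 1.32). miR-125b thus stood just below 2-fold and at the median of all miRNAs tested.

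The order of the levels in lactation was miR-100, miR-99b, miR-125b, miR-99a and miR-125a, from high to low. In involution it was miR-125b, miR-99a, miR-99b, miR-125a and miR-100. No 2 neighbours in either order had overlapping intervals. Levels of different miRNAs also carry differences in adaptor ligation, so these orders describe the libraries. Among the 161 miRNAs searched, miR-100 went from place 35 by level to place 80 and miR-99b from 44 to 72, while miR-99a went from 56 to 52, miR-125b from 45 to 40 and miR-125a from 63 to 78.

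**Figure D1:**
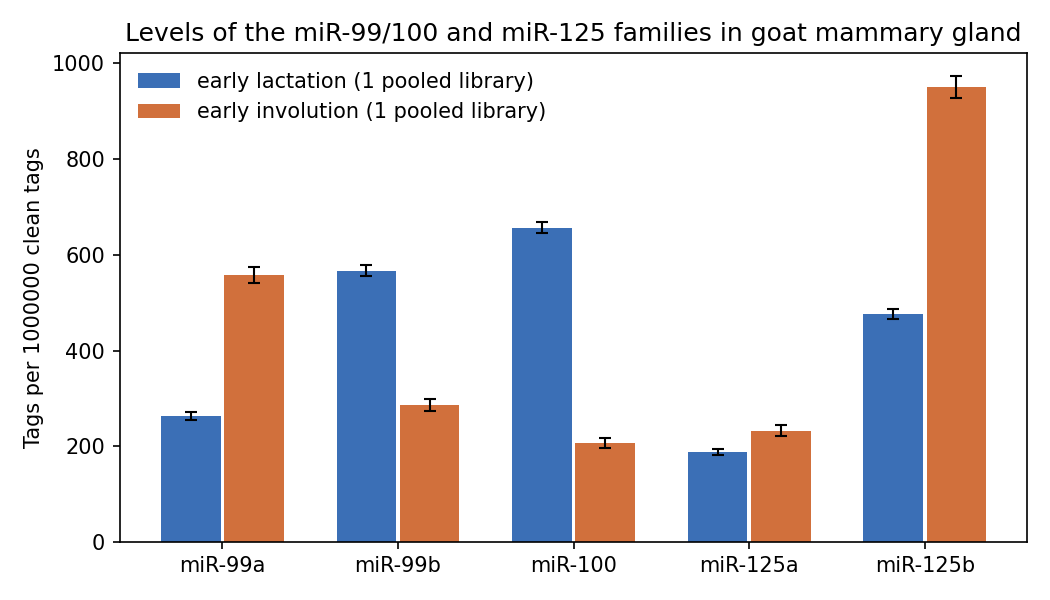
Level of each member in tags per 1000000 clean tags, 1 pooled library per stage, with 95% Poisson intervals as error bars. miR-100 has the tallest lactation bar (657) and the shortest involution bar (207), while miR-125b is the tallest in involution (951).

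A call required a 2-fold difference in either direction, an interval that left out 1, and 10 TPM or more in 1 library. Of the 5 members, miR-99a was called higher, where 49.6% of the 141 miRNAs tested were (70 miRNAs), and miR-100 was called lower, where 5.67% were (8 miRNAs). The other 3 members were not called. The median log2 ratio of the members was 0.31 and that of all tested 0.997. From the lowest ratio upward, miR-100 took place 1 of 141, miR-99b place 9, miR-125a place 49, miR-125b place 71 and miR-99a place 77. The interval of miR-100, with a log2 ratio of -1.67, overlapped those of the next 2 in order, miR-542-3p (-1.57) and miR-148b (-1.55). It also overlapped those of miR-34c (-1.39) and of the opposite arm miR-125b-2-3p (-1.36).

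**Figure D2:**
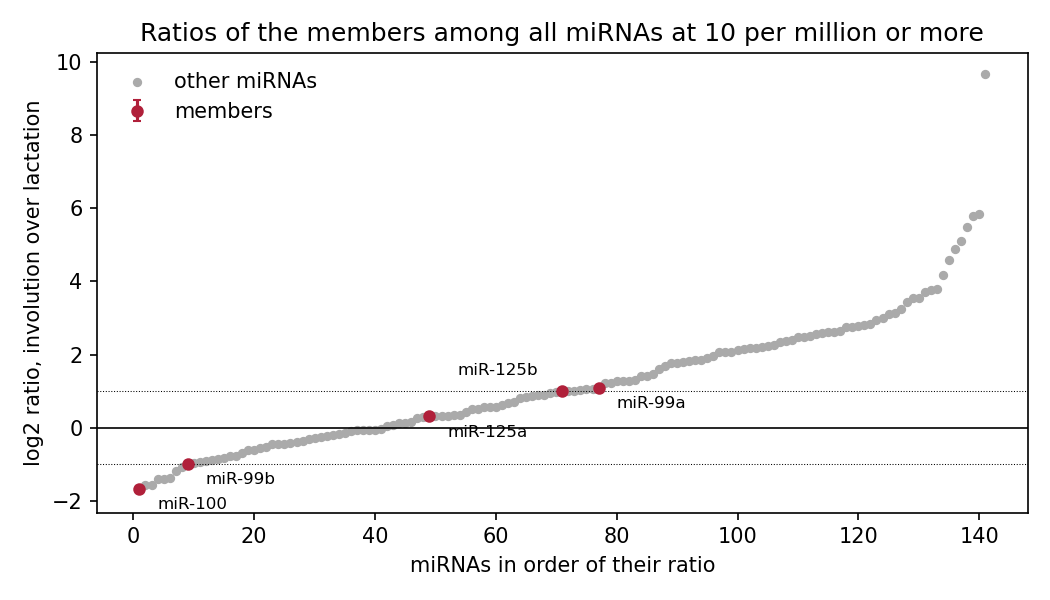
log2 ratio of involution over lactation for the 141 miRNAs tested, in order from the lowest; red points are members with 95% counting intervals, which are smaller than most points, and dotted lines mark 2-fold. miR-100 stands at the lower end, miR-99b at place 9, and miR-125b and miR-99a near the middle.

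Scaling to the bulk of miRNAs in place of all clean tags lowered every log2 ratio by the same amount, 0.97 with median-of-ratios and 0.88 with edgeR TMM. On the median-of-ratios scale miR-100 was 6.24-fold lower and miR-99b 3.89-fold lower, miR-99a and miR-125b had ratios of 1.08 and 1.02, and miR-125a turned to 1.58-fold lower. The TMM values were 5.83-fold and 3.64-fold lower for miR-100 and miR-99b, ratios of 1.15 and 1.09 for miR-99a and miR-125b, and 1.48-fold lower for miR-125a. On both scales no member was called higher and 2 were called lower, miR-99b and miR-100. Beside these counts, median-of-ratios called 31.9% of all tested higher and 28.4% lower, and TMM 33.3% and 24.8%. The direction of miR-125a, and whether miR-99a and miR-125b were higher by more than 1.2-fold, therefore depended on the scaling, whereas miR-100 and miR-99b were lower on each.

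**Figure D3:**
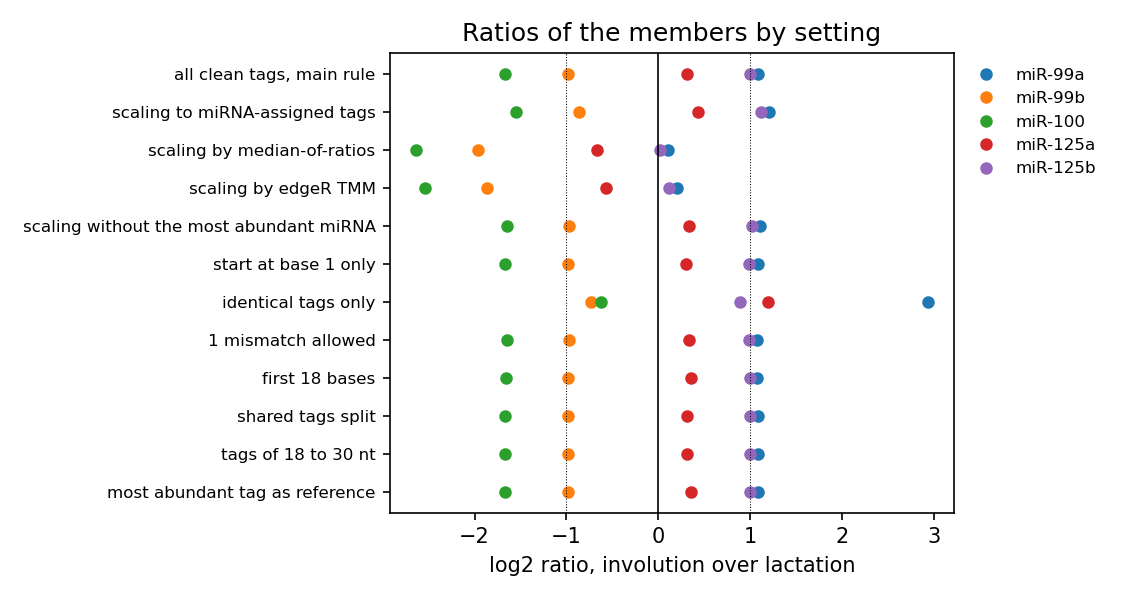
log2 ratio of each member (colours) under each scaling and each rule of assignment, with dotted lines at 2-fold. Median-of-ratios and TMM shift all members to the left together, and counting only tags identical to the mature sequence places miR-99a at 2.94 and miR-100 at -0.63.

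The miR-99/100 seed summed to 1487 TPM in lactation and 1051 in involution, or 1.42-fold lower (1.38 to 1.45). It was lower under median-of-ratios and TMM too, 2.78-fold and 2.60-fold. Within it the makeup turned over. miR-100 made up 44.2% of the family in lactation and 19.7% in involution, miR-99b 38.1% and 27.2%, and miR-99a 17.7% and 53.1%. The miR-125 seed summed to 664 and 1183 TPM, a ratio of 1.78 (1.73 to 1.83) that turned to 1.10-fold lower under median-of-ratios and 1.03-fold lower under TMM. Of this sum miR-125b was 71.7% in lactation and 80.3% in involution. The shares within a family do not depend on the scaling.

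Since 1 base separates miR-99a from miR-100, that base was read directly in tags holding the other bases from 1 to 20. In lactation 11627 of 16470 such tags (70.6%) had A at base 16, as miR-100 has, and 4837 had T, as miR-99a has. In involution 1495 of 5671 (26.4%) had A and 4173 had T. Only 6 tags in lactation and 3 in involution had C or G there. As 1 sum, miR-99a and miR-100 had 920 TPM in lactation and 765 in involution, or 1.20-fold lower (1.17 to 1.24), so the sum hid opposite differences of its parts.

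Cluster partners were compared by the ratio of their tag counts within a library, which no scaling alters. miR-99a and miR-125b kept nearly the same ratio, 0.553 in lactation and 0.587 in involution, a difference of 1.06-fold (1.01 to 1.12). This rests on counting all end forms: with only tags identical to the mature sequences, the log2 ratios of miR-99a and miR-125b differed by 2.05 (1.88 to 2.22) against 0.09 (0.01 to 0.16), which met the rule for a call. The ratio of miR-100 to miR-125b was 1.38 in lactation and 0.217 in involution, or 6.34-fold lower (5.96 to 6.75). For miR-99b and miR-125a it was 3.02 and 1.23, 2.46-fold lower (2.28 to 2.65). Mature miR-125b is the same sequence from both of its genes, so its tags cannot be divided between the cluster of miR-99a and that of miR-100. Between the 2 miRNAs of unlike clusters and nearly like sequence, miR-99a over miR-100 was 0.401 in lactation and 2.70 in involution, a 6.73-fold difference (6.29 to 7.21). It was the largest difference of the 7 pairs compared, with an interval that overlapped that of miR-100 and miR-125b.

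The strand opposite to the mature miRNA in the hairpin is usually degraded, and where its tags remain they differ between gene copies that share a mature sequence. The most abundant tags of the 2 best covered opposite arms are shown with their own bases 2 to 8 in capitals, because that of miR-125b-2 began 2 bases into the conserved sequence.
miR-99a-3p: cAAGCTCGcttctatgggtctgt
miR-125b-2-3p: aCAAGTCAggctcttgggacc
miR-99a-3p had 7.10 TPM in lactation (128 tags) and 17.5 in involution (129 tags), 2.46-fold higher (1.91 to 3.17). That met the rule for a call, as 49.6% of the 141 miRNAs tested did in this direction. Its log2 ratio of 1.30 would be lower by 0.97 under median-of-ratios, which falls short of 2-fold. Relative to mature miR-99a its level was about steady, with 37.1 and 31.9 mature tags for each opposite tag.

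miR-125b-2-3p went against its mature partner. It had 59.6 TPM in lactation (1074 tags) and 23.2 in involution (171 tags), or 2.57-fold lower (2.19 to 3.04), while miR-125b was nearly 2-fold higher. One tag of this arm was read per 7.99 tags of miR-125b in lactation and per 41.1 in involution, and the change of the arm relative to miR-125b was 5.14-fold (4.35 to 6.09). Of its tags 99.4% in lactation and 100% in involution began at base 3 of the conserved sequence. The arm of the other copy, miR-125b-1-3p, had 5.21 TPM (94 tags) and 2.84 (21 tags), 1.83-fold lower (1.13 to 3.10).

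Tags of the arm of miR-125b-2 outnumbered those of miR-125b-1 by 11.4 times in lactation and 8.14 times in involution. miR-99a-3p and miR-125b-2-3p, from the same cluster, moved apart by 6.33-fold (4.67 to 8.57), whereas mature miR-99a and miR-125b, over all end forms, differed by the 1.06-fold given above. The remaining arms were sparse. miR-99b-3p had 49 and 12 tags, miR-125a-3p 41 and 12, and miR-100-3p 3 and 4, and the intervals of their ratios all included 1. Only 2 of the 6 arms reached 10 TPM.

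**Figure D4:**
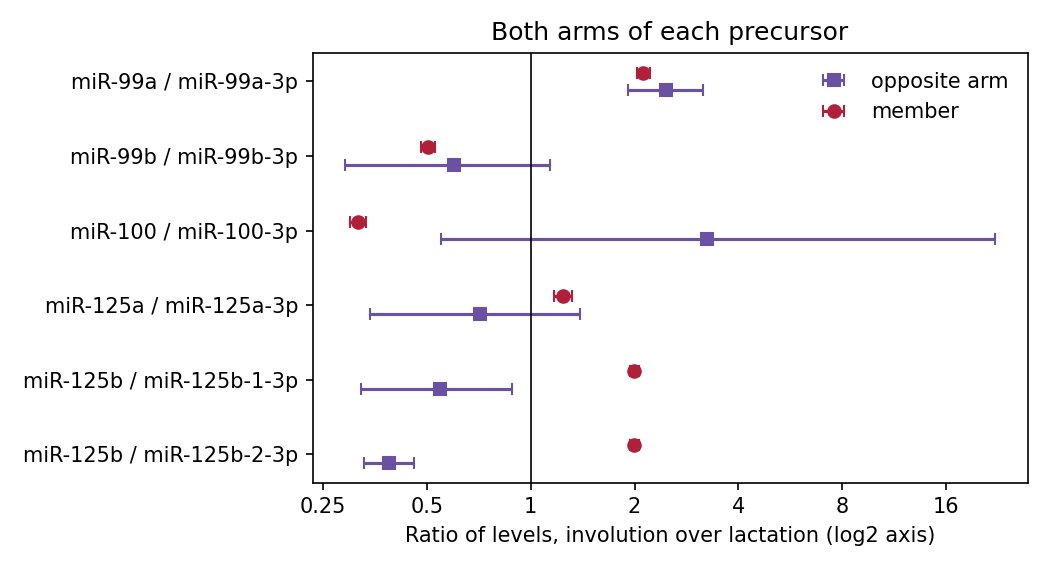
Ratio of involution over lactation for each member (circles) and its opposite arm (squares) on a log2 axis, with 95% counting intervals. Ratios are per clean tag. The square lies near the circle for miR-99a and, on this scale, on the other side of 1 for both copies of miR-125b. It also lies there for miR-125a (arm 0.715) and miR-100 (arm 3.26), where the interval of the arm includes 1. miR-100-3p rests on 7 tags.

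Mature miRNAs end at several positions, and an added A or T at the 3′ end is a known mark of terminal uridylyl and adenylyl transferases. The commonest forms of miR-99a, miR-100 and miR-125b are shown to make the ends visible, with bases past the conserved 3′ end in capitals.
miR-99a, 21 nt: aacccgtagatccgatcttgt
miR-99a, 22 nt: aacccgtagatccgatcttgtg
miR-99a, 23 nt: aacccgtagatccgatcttgtgA
miR-100, 21 nt: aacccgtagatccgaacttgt
miR-100, 22 nt: aacccgtagatccgaacttgtg
miR-100, 23 nt: aacccgtagatccgaacttgtgA
miR-125b, 22 nt: tccctgagaccctaacttgtga
miR-125b, 23 nt: tccctgagaccctaacttgtgaA
In each of the 5 members the tags reached further in involution. The share of tags that ended at base 22 or later was 37.8% in lactation and 65.1% in involution for miR-99a, 53.5% and 69.4% for miR-99b, and 44.5% and 57.1% for miR-100. It was 81.5% and 88.1% for miR-125a, and 80.5% and 84.0% for miR-125b. No member's Clopper-Pearson intervals for the libraries overlapped. The libraries did not share 1 direction: of 71 other miRNAs with 1000 or more tags in both, the share was higher in involution for 32 and lower for 39, with a median difference of -0.27 points and a range from -40.3 to 58.6.

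**Figure D5:**
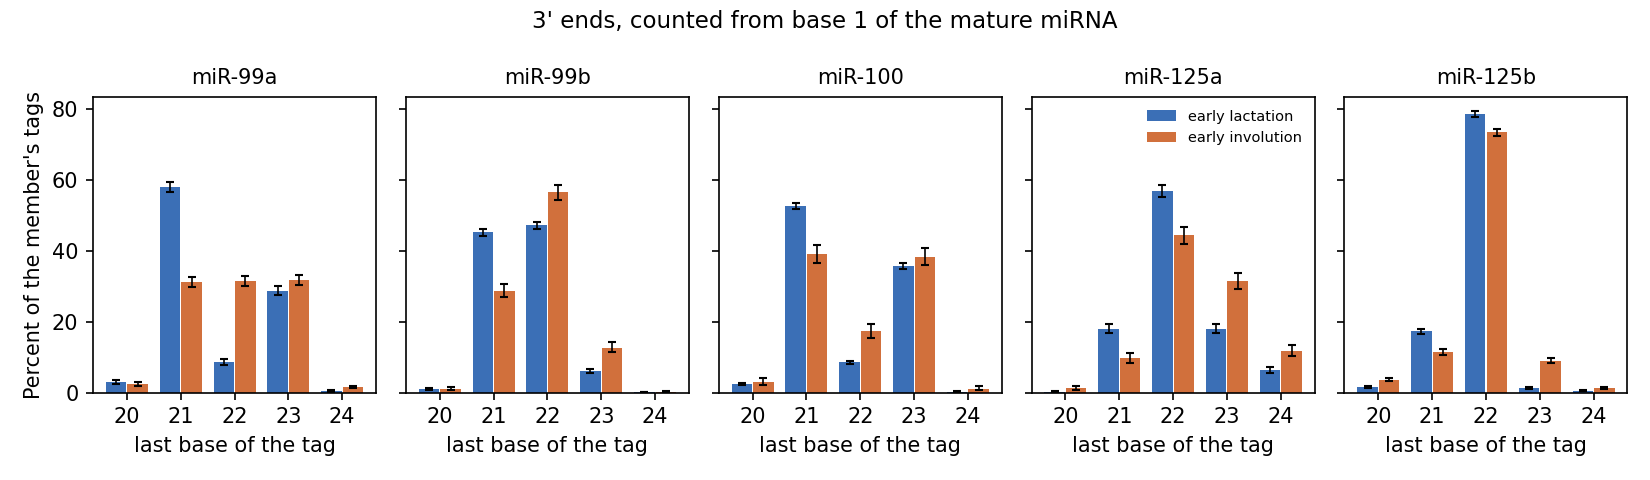
Percent of each member's tags by the last base, counted from base 1 of the mature miRNA, with 95% Clopper-Pearson intervals, in 1 pooled library per stage. The bars at base 21 are lower in involution in every panel, and base 22 of miR-99a and base 23 of miR-125a and miR-125b are higher.

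The higher level of miR-99a rested on its longer forms. Ratios of single forms are per clean tag, and under median-of-ratios each would be lower by the 0.97 in log2 given above. Its 21 nt form had 153 TPM in lactation and 174 in involution, a ratio of 1.14 (1.06 to 1.22). The 22 nt form had 22.8 and 175, a ratio of 7.67 (6.86 to 8.60), and the 23 nt form with A had 69.4 and 152, a ratio of 2.18 (2.01 to 2.37). The 21 nt form is therefore the one of these 3 whose direction turns under median-of-ratios and TMM.

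miR-100 was lower in each of these forms, unequally. Its 21 nt form had 343 TPM in lactation and 80.0 in involution, or 4.28-fold lower (3.93 to 4.67). The 22 nt form had 55.0 and 35.6, 1.54-fold lower (1.35 to 1.77), and the 23 nt form with A had 202 and 68.2, 2.96-fold lower (2.70 to 3.26). Of these 3 forms the one of 22 nt had the highest ratio in both miR-99a and miR-100.

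In miR-99b the 21 nt form had 256 TPM in lactation and 82.3 in involution, or 3.11-fold lower (2.85 to 3.39), and the 22 nt form 266 and 160, 1.66-fold lower (1.56 to 1.77). Its 23 nt form with A had 19.6 and 24.1. miR-125a, whose conserved sequence is 24 nt long, was read most often as a 22 nt tag, with 107 TPM in lactation and 102 in involution. Its 23 nt form had 33.5 and 73.1, a ratio of 2.18 (1.94 to 2.46), and the 24 nt form 11.9 and 27.1, a ratio of 2.28 (1.87 to 2.78). All of the higher level of miR-125a was therefore outside its main form, of which the ratio was 0.960 (0.882 to 1.05).

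For miR-125b the main form of 22 nt had 374 TPM in lactation and 694 in involution, a ratio of 1.86 (1.79 to 1.92), and the 21 nt form 81.9 and 109. The form with 1 added A had 5.16 and 80.8 TPM (93 and 597 tags), a ratio of 15.7 (12.6 to 19.7). That with 2 added A had 0.832 and 9.88 (15 and 73 tags), a ratio of 11.9 (6.75 to 22.3). The gain was not confined to longer tags, since the 20 nt form had 7.76 and 34.5, a ratio of 4.45 (3.60 to 5.50).

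Tags longer than the conserved end made up 29.1% of miR-99a in lactation and 33.6% in involution, 36.0% and 39.7% of miR-100, 6.23% and 12.9% of miR-99b, and 1.65% and 10.5% of miR-125b. miR-125a had only 2 and 4 such tags. The first added base was mostly A. It was A in 91.8% and 86.0% of the longer miR-99a tags, in 90.1% and 89.8% of those of miR-100, and in 90.1% and 95.1% of those of miR-125b. miR-99b differed in that T followed in 40.7% and 33.8% and A in 58.1% and 65.8%. The hairpins were not used here, so an A from the gene and an added A cannot be told apart. A gene copy holds just 1 letter at that place, and in a miRNA of 1 gene the rarer letters together give the smallest share that is not from the gene. For miR-99b that share was 2.61% of all its tags in lactation and 4.40% in involution, for miR-99a 2.38% and 4.68%, and for miR-100 3.58% and 4.06%.

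A second measure of added bases used tags that followed the mature sequence to base 18 or beyond and then departed from it by 1 to 3 bases before its end. Such tags made up 1.63% (1.504 to 1.76) of the 5 members' tags in lactation and 2.82% (2.58 to 3.08) in involution. Another letter at a given inner base from 9 to 17 was read in 0.165% and 0.127% of tags. That rate is per base, while a tail could begin at several bases. Over bases 9 to 17 together, 580 and 189 tags departed, beside 635 and 475 with a tail. The pooled tail shares also carry the changed makeup. miR-99b and miR-100, with low shares by this measure, gave 10214 and 11659 of 39021 tags in lactation, and 2124 and 1510 of 16841 in involution. miR-125a had the highest share by this measure, 5.82% in lactation and 9.04% in involution. The measure leaves out bases added past the conserved end, which lies at base 24 in miR-125a and at base 22 in the others. Of miR-125a tags, 57.0% in lactation and 44.4% in involution ended at base 22, where an added base was counted unless it matched. The shares therefore do not rank the members by added bases. A single A took 4.53% and 5.08% of its tags and a single T 1.12% and 2.73%. miR-125b had 1.67% and 2.33%, and its counted tails were for the most part a single T, 0.919% and 1.37%. Its base 22 is A, so an A added to a tag 1 base short of the end matched and was not counted. The excess of T over A therefore does not show which base was added more often. Past the conserved end, most of its longer tags had A first, as given above. The intervals of the libraries were apart for miR-125a and miR-125b. They overlapped for miR-99a (2.79% and 2.33%), miR-99b (0.607% and 1.08%) and miR-100 (0.720% and 1.26%).

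The 5′ end sets the seed and it varied little among the tags counted, but the rule left out tags that began before base 1. Base 1 was the start of 97.6% to 99.8% of counted tags in every member and library. Over all tags with bases 3 to 18 the range was 96.6% to 99.4%. There miR-99a had 97.9% in lactation and 96.6% in involution, and miR-100 had 97.6% and 97.0%. By the counting rule, tags that began at base 2 differed between these 2. miR-100 had the most tags that began at base 2, 2.23% in lactation (264 tags) and 2.36% in involution (36 tags). For miR-99a these were 0.232% and 0.316%, although the sequence differs from miR-100 at 1 base only.

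Single substitutions between base 2 and base 19 were found in 1.52% to 3.12% of a member's tags in lactation and in 1.46% to 2.16% in involution. The most frequent was C11T in miR-125b, in 1.08% of tags in lactation (95 tags) and 0.356% in involution (25 tags). The same token in miR-125a had 0.900% and 0.409%. A14C in miR-125b was read in 63 tags in lactation, 0.718%, and in 0 in involution, where the Clopper-Pearson interval reaches up to 0.0526%. The source of these substitutions was not tested.

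The wider family holds miR-10a and miR-10b, which lie in the HOX gene clusters and resemble miR-100 in sequence. miR-10a had 883 TPM in lactation and 338 in involution, or 2.61-fold lower (2.50 to 2.73), a called difference. miR-10b, the more abundant, had 4160 and 2730, 1.52-fold lower (1.501 to 1.55). Both were lower, as were miR-100 and miR-99b, under all 5 scalings.

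Among 96 other miRNAs at 100 or more TPM, the closest in log2 ratio to each member over the 2 libraries were sought as a description. For miR-100 (-1.67) they were miR-148b (-1.55) and miR-10a (-1.39). For miR-99b (-0.99) they were miR-30a-5p (-0.96) and miR-196b (-0.94), and for miR-99a (1.08) they were miR-340 (1.03) and miR-101 (1.01). For miR-125b (0.997) they were miR-25 (1.002) and miR-101 (1.01), and for miR-125a (0.31) they were miR-16 (0.33) and miR-200b (0.34). With 2 libraries, likeness means a like ratio and no more.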

How the data were processed

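Small RNA of 2 libraries, 1 per stage and each a pool of 5 goats, was size selected (18 to 30 nt), ligated to adaptors, amplified and sequenced, per the labels. The authors removed low-quality reads, adaptors, short tags and polyA tags, per the file notes deposited with the series, and the deposited values are raw counts of identical clean tags. For the genome build, tool versions and mapping: not given in the sources used here.

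No miRNA sequence table was used. Each of 161 conserved miRNAs was recognised by its 7-base seed, a short inner word and its mature length, and the most abundant deposited tag of that length with both became the reference, so names are those of conserved mammalian miRNAs. Levels are tags per 1000000 clean tags (TPM, where T is tags). Intervals are 95%: exact Poisson for levels, Clopper-Pearson for shares, conditional Clopper-Pearson for ratios and exact conditional odds ratios for pairs. PCR copies carry no molecular identifiers, so intervals and limits cover counting error only. The planned comparison of tails with hairpins was replaced by one with the mature sequence. In the setting that allows 1 mismatch, exact matches took priority and ties were set aside. Named miRNAs are the members, their opposite arms, miR-10a and miR-10b, and the 2 closest in log2 ratio to each member at 100 TPM. The rule also allows up to 4 of the most abundant markers of each list. Here markers are given as list sums and medians, with the most abundant marker named for some lists, and miR-206 named for its low count. Outside this rule, miR-542-3p and miR-34c were named after their values were seen. The members and lists were chosen with earlier results of these data known. Intervals, calls and assignment were tested on simulated data. Alternatives covered scaling, assignment and the filter on level. Python 3.11.15, numpy 2.4.6, scipy 1.17.1, matplotlib 3.10.9, R 4.3.3 and edgeR 4.0.16 (TMM factors only) were used.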

Additional observations from a re-analysis of the deposited data

How the results depend on the processing

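Of 126 recomputed values, 98 kept their direction and their side of the limit or, without a limit, stayed within 1.5 times the count or within the interval. Another 2, miR-125a under median-of-ratios and TMM, stayed uncalled but turned to log2 ratios of -0.66 and -0.57. No called difference reversed. Scaling by median-of-ratios and by TMM gave log2 ratios of 0.11 and 0.21 for miR-99a, below the limit, and of -1.96 and -1.86 for miR-99b, beyond it. Under each, 0 members were called higher and 2 lower. Of all miRNAs, median-of-ratios called 45 higher and 40 lower, and TMM called 35 lower. miR-125b passed the limit when scaled to miRNA-assigned tags (1.12) or without miR-143, the most abundant miRNA (1.02), each giving 2 members called higher. With only tags identical to the mature sequence, miR-100 fell short (-0.63), miR-125a passed (1.19), miR-99a and miR-125b differed by 2.05 in log2 ratio, and 2 members were called higher and 0 lower, since this setting keeps 1 end form. With a minimum of 100 TPM, which tests fewer miRNAs, 45 were higher and 5 lower. Counting all tags with bases 3 to 18 moved the difference in tags starting at base 1 to -1.30 points for miR-99a, -2.47 for miR-125a and -2.27 for miR-125b. Tails from base 20 on made up 1.47% in lactation. For these last 2 the cause was not tested. Using the most abundant tag as reference, chosen after seeing the data, changed no call of a member. The search of the opposite arms in hairpins was not run. No paired analysis was possible because each stage has 1 pooled library. Depth limits the opposite arms most: 3 tags equal 0.166 TPM in lactation and 0.406 in involution.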
